A study of Mus musculus with 3 samples.

Results

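Among CD8+ T cells of receptor-deficient mice, the NK1.1+ fraction is compared with the NK1.1− fraction across the genome, on 2 of the 3 arrays of the study. Both came by flow sorting from Tgfbr2fl/fl x CD4-Cre mice (KO), 15 to 17 days old. In these mice both copies of Tgfbr2, which encodes the type II receptor of transforming growth factor β (TGF-β), are floxed, and Cre is driven by the Cd4 promoter, which is active in the CD4+CD8+ thymic precursors of CD8+ T cells as well as in CD4+ T cells. The remaining array, shown beside them, held CD8+ T cells of Tgfbr2fl/wt x CD4-Cre littermates (control), which carry the same Cre and 1 floxed copy. The labels give the gate of the control cells both as NK1.1− and as all CD8+ cells, so it is not settled. The study set out to find what underlies the pathogenicity of NK1.1+ T cells without the receptor. Each group had 1 array, and the sources used here give neither the number of mice behind each nor whether mice were pooled. There is therefore no spread between mice, no test was made, and every difference stands between single arrays.

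All probe sets other than array controls that carry exactly 1 gene symbol were used, and a gene was read by the probe set of highest mean over the 3 arrays. This gave 18193 genes, of which 10618 were measured on at least 1 KO array. Measured means a GCRMA value (an intensity on a linear scale, corrected for background and normalized) of at least 9.66, or 3.27 on the log2 scale. Values under that level were raised to it, and a gene is called higher or lower where the KO arrays then differ by 2-fold or more, that is, by a log2 difference of at least 1. Where 1 of the arrays was under the level, the fold is the smallest it can be and is given with "at least". Where 3 values stand together they follow the order NK1.1+ KO, NK1.1− KO and control.

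TGF-β is a cytokine that holds back T cell activation, division and killing function, and its receptor signals through SMAD proteins. NK1.1, the product of Klrb1c, is a lectin-like receptor of natural killer (NK) cells that is also found on some T cells, among them CD1d-restricted NKT cells and activated CD8+ T cells. Killer cell lectin-like receptors either inhibit, through motifs in their own tails, or activate, through adaptors such as DAP12 (Tyrobp) and DAP10 (Hcst) that carry the signalling motif.

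The sort marker separated the arrays. The probe set shared by Klrb1b and Klrb1c read 1618, 52.7 and 7.09, which is 30.7-fold higher in the NK1.1+ fraction, while Cd3e, a chain of the T cell receptor complex, read 776, 750.3 and 701. Cd8a read 524, 1027 and 1786 and Cd8b1 223, 389 and 468, both short of 2-fold, and the 5 measured Cd8a probe sets differed between the KO arrays by -2.14 to 0.24 on the log2 scale. The targeted gene, Tgfbr2, read 1808, 1271 and 2634 on its 1 measured probe set of 3, and the sources used here do not say whether it lies in the deleted part, so it does not check the deletion. Markers of other cells gave signal. Those of monocytes and macrophages summed to 35301, 11059 and 11591, and those of B and plasma cells to 17724, 2851 and 3540.2.

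The arrays also differed in their technical controls. In NK1.1+ KO over NK1.1− KO, controls added at hybridisation differed by 2.52-fold and poly-A controls added to the RNA by 8.04-fold. The ratio of the 3′ to the 5′ probe set was 81.9, 12.3 and 6.02 for Actb and 10.8, 26.7 and 17.8 for Gapdh. Their part in the results below was not tested.

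Across the genome more genes were lower than higher in the NK1.1+ fraction, but the largest differences were upward. Of the 10618 genes, 683 (6.43%) were called higher and 2222 (20.9%) lower. The median log2 difference was -0.24. At 8-fold or more the split turned, with 111 higher and 70 lower, and at 16-fold or more it was 46 against 9. Among the 9183 genes measured on both arrays, 419 (4.56%) were higher and 2030 (22.1%) lower, with a median of -0.31. The split depends on how the arrays are scaled. Quantile normalization gave 922 higher and 1659 lower, centring on that median gave 1141 and 1431, and centring on a set of 181 widely expressed genes, chosen after seeing the data, gave 2140 and 737. As deposited, 23.5% of calls were upward, and under these scalings 35.7%, 44.4% and 74.4%. The widely expressed genes themselves had a median of -0.69, so lists with medians near that value come close to 0 on centring at them.

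**Figure D1:**
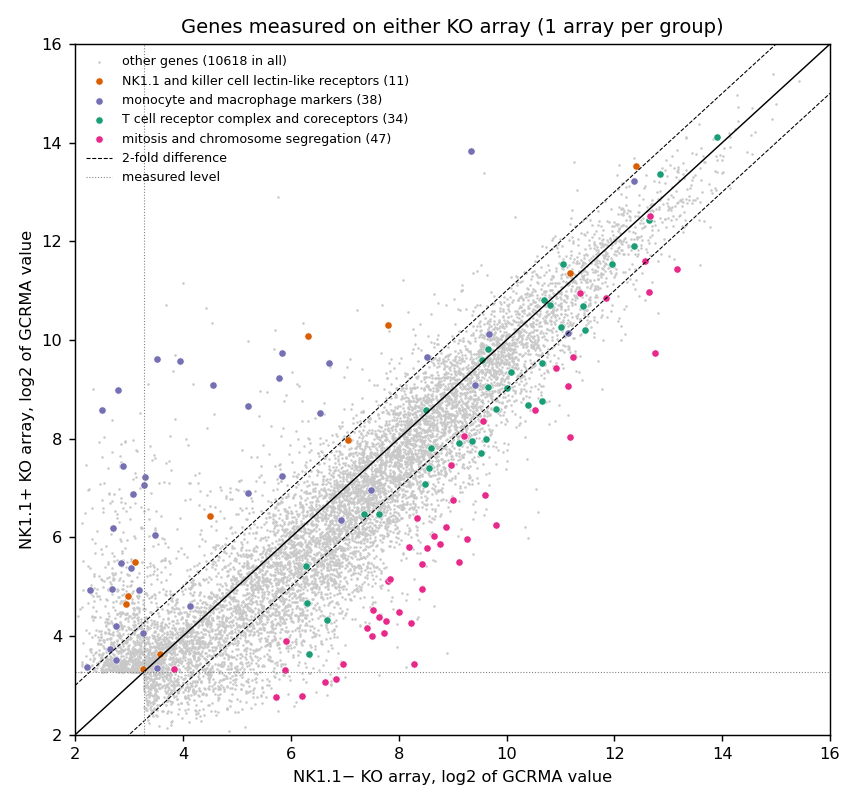
Each point is a gene measured on at least 1 KO array, with its log2 GCRMA value in NK1.1− KO cells on the horizontal axis and in NK1.1+ KO cells on the vertical axis; dashed lines mark a 2-fold difference and dotted lines the measured level. Of 47 mitosis genes 42 are called lower, while 25 of 38 monocyte and macrophage markers and 7 of 11 killer cell lectin-like receptor genes are called higher.

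Probe sets of the same gene disagreed often enough to matter for single genes. Among the 4666 genes read by at least 2 measured probe sets, log2 differences varied with a pooled SD of 0.80. All measured probe sets had the same sign for 181 of 271 genes called higher and for 560 of 876 called lower. Among genes given below that were not called, some had another measured probe set that differed by 2-fold or more. It was lower for B2m, Bub3, Cd160, Cd44, Dnmt1, Fasl, Fyn, Incenp, Lef1, Mcm4, Pttg1 and Smc4, and higher for Actb, Prf1, Satb1 and Smad7. The share called lower also moved with brightness, when the genes measured on both arrays were put into 5 equal classes. It was 15.6% in the dimmest class, 37.7% in the next and 10.2% in the brightest, while the share called higher stayed between 3.49% and 5.77%.

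**Figure D2:**
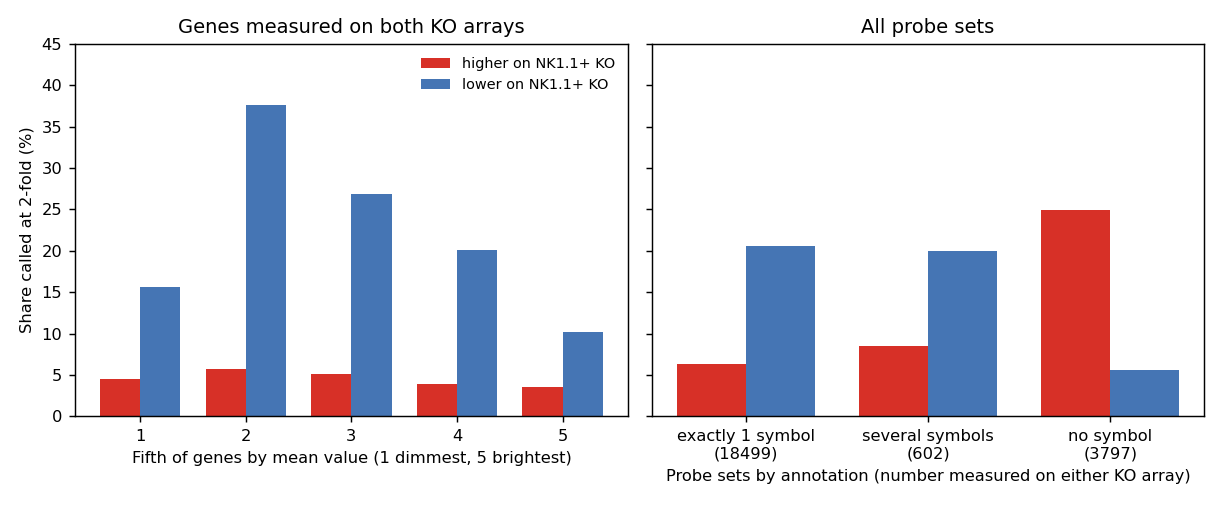
The left panel shows the share of genes called higher (red) or lower (blue) in NK1.1+ KO than in NK1.1− KO cells by class of mean value, and the right panel the same share for all probe sets with exactly 1 gene symbol, several or none. Lower calls peak at 37.7% in class 2, and the 3797 measured probe sets without a symbol run the other way, with 24.9% higher and 5.58% lower.

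Killer cell lectin-like receptor genes were higher in the NK1.1+ fraction for 7 of 11 measured members (63.6%, against 6.43% over all genes), and none was lower. The median log2 difference was 1.38, against -0.24 over all genes. Of these members 4 reached the level in the NK1.1+ fraction alone, so they could not come out lower, and with an offset of 32 in place of the level the median was 0.77. Over all 18 genes of the list on the array, with no level, it was 0.24. In bulk RNA fewer cells of a type and less RNA per cell cannot be told apart. Klre1, a receptor chain encoded in the NK gene complex, read 1077, 80.2 and 11.7, a difference of 13.4-fold. Klrc1, encoding the inhibitory receptor NKG2A, read 1274, 224 and 27.9 (5.68-fold higher), and Klrk1, encoding the activating receptor NKG2D, 86.3, 22.8 and 13.6 (3.78-fold higher). For these 3 genes the order was the same, with NK1.1+ KO above NK1.1− KO above control. Klrd1, encoding CD94, the partner chain of NKG2A, was bright on every array at 11874, 5403 and 3687 and 2.198-fold higher.

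Ly49 receptor genes, whose products bind MHC class I, stood nearer the level. Klra7 read 45.5, 8.59 and 51.3, at least 4.71-fold higher than in NK1.1− KO cells but level with control, and a second Klra7 probe set differed by 0.26. Klra2 was at least 2.8998-fold and Klra8 at least 2.598-fold higher, both under the level on the other arrays. The probe set shared by Klra9 and Klra3 read 1588, 151 and 109. Klrg1, a receptor of terminal effector cells, did not separate the KO fractions, at 2615, 2326 and 397, and neither did Klrb1f at 251, 134 and 8.59, whose 2 probe sets pointed opposite ways (-0.88 and 0.90). The single-symbol Klrb1b probe set lay at the level, at 10.02, 9.56 and 10.3. The 7 genes under the level on both KO arrays were Klra1, Klra17, Klra5, Klrb1a, Klrc2, Klrc3 and Klrg2.

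Other NK cell receptors split, with 4 (30.8%) higher and 3 (23.1%) lower of 13 (median 0.01), against 6.43% and 20.9% over all genes. Cd244a, encoding the SLAM family receptor 2B4, read 705, 106 and 48.1 and was 6.66-fold higher. Pilrb1, an activating paired receptor, was at least 25.5-fold higher, its inhibitory partner Pilra 5.61-fold higher, and Fcgr3, the low-affinity Fc receptor of NK cells and phagocytes, 2.64-fold higher. Lower were Slamf6 (2.59-fold), Cd7 (2.395-fold) and Il2rb (5.27-fold). Slamf7 read 251, 216 and 25.04 and Cd160 383, 446 and 142, and for both genes the 2 KO arrays were within 2-fold of each other and above the control.

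The adaptors and kinases that these receptors signal through split. Tyrobp read 1183, 52.6 and 21.6 (22.5-fold higher), Fcer1g, the γ chain of Fc receptors, 261, 5.76 and 6.17 (at least 26.99-fold higher), Syk 70.99, 20.3 and 37.2 (3.503-fold higher) and Plcg2 88.5, 32.5 and 27.3 (2.73-fold higher). These 4 are used by NK and myeloid cells alike. Among the corresponding T cell molecules, Zap70, the kinase of the T cell receptor, read 210.5, 739 and 683 (3.51-fold lower), and the SLAM adaptor Sh2d1a was 2.098-fold lower. Other measured probe sets gave log2 differences of -0.54 for Zap70 and of 1.74 and 0.09 for Syk. By their brightest probe sets Cd247, the ζ chain, was 2.32-fold and the exchange factor Vav1 2.83-fold lower, but another probe set of each differed by 0.0071 and 0.024 on the log2 scale. Hcst stood at 242, 156 and 115. In a list drawn up as NK cell genes rare in T cells, 5 of 9 measured members were higher and 2 lower, against 6.43% and 20.9% over all genes. Of these 9, 8 reached the level in the NK1.1+ and 6 in the NK1.1− fraction. Those under it in the NK1.1− fraction could not come out lower. Ncr1, Gzmc, Khdc1a and Lat2 were under the level on both KO arrays. Fcer1g, Tyrobp and Klra8 stand in that list too, and Spry2, an inhibitor of MAP kinase signalling, was 10.4-fold higher in it. Eomes, also a member though it read 593 in the control T cells, was 2.84-fold lower, and the lowest log2 difference in the list was -2.19.

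Cytotoxic genes were called lower about as often as all genes. Of 23 measured granule and death ligand genes 0 were higher and 5 (21.7%) lower, against 6.43% and 20.9% over all genes. Their median of -0.28 became 0.03 on centring at the all-gene median and 0.41 on centring at widely expressed genes. Gzma, encoding granzyme A, read 31856, 19886 and 158, Prf1, the pore-former perforin, 377, 237 and 76.8, and Fasl, the death ligand, 1285, 815 and 75.2. Both KO arrays stood well above the control for these, and by these probe sets the KO fractions were within 2-fold of each other, while other probe sets gave 1.26 for Prf1 and -1.07 for Fasl. Gzmb, encoding granzyme B, read 1788, 6098 and 120.2, so it was 3.41-fold lower in the NK1.1+ fraction though still above the control. Its inhibitor paralogue Serpinb9b was 5.96-fold lower, and the granule release genes Unc13d and Stxbp2 2.37-fold and 2.796-fold lower. Gzmm was at least 2.59-fold lower, and Gzmk stood at 269, 451 and 5.96.

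Among effector transcription factors 3 of 20 were higher and 3 lower, against 6.43% and 20.9% over all genes. Their median was -0.01, and above 0 under each other scaling. Zeb2, a factor of terminal effector T and NK cells and of phagocytes, read 535, 71.4 and 9.42 (7.49-fold higher). Klf4 read 1301, 23.3 and 15.2 (55.9-fold higher, its other measured probe set giving a log2 difference of 1.11), and Cebpb was 5.81-fold higher, both being factors of the monocyte lineage. Eomes, a T-box factor of memory and NK cells, read 734, 2085 and 593 (2.84-fold lower), and the activation factors Irf4 and Batf were 5.11-fold and 5.43-fold lower. Tbx21, encoding T-bet, read 1568, 2170.5 and 192, Prdm1, encoding Blimp-1, 269, 273 and 46.9, and Bhlhe40 718, 778 and 29.9. For these last 3 genes both KO arrays were above the control and within 2-fold of each other.

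Of 8 measured cytokine genes, Il2 was 2.84-fold higher and Il21 2.82-fold lower, while Ifng, encoding interferon γ, read 2997, 3874 and 159. Chemokine ligands were higher for 3 of 12 with none lower (median 0.65), against 6.43% higher and 20.9% lower over all genes. The 3 were Ccl6 (30.5-fold), Cxcl9 (17.9-fold) and Ccl9 (8.01-fold), chemokines made mainly by myeloid cells. The ligands of effector T and NK cells stayed within 2-fold between the fractions: Ccl5 read 21305, 12186 and 1119, Ccl4 165, 89.97 and 8.62 and Ccl3 111, 185 and 4.51. Xcl1 stayed near the level, at 9.74, 10.7 and 10.6.

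**Figure D3:**
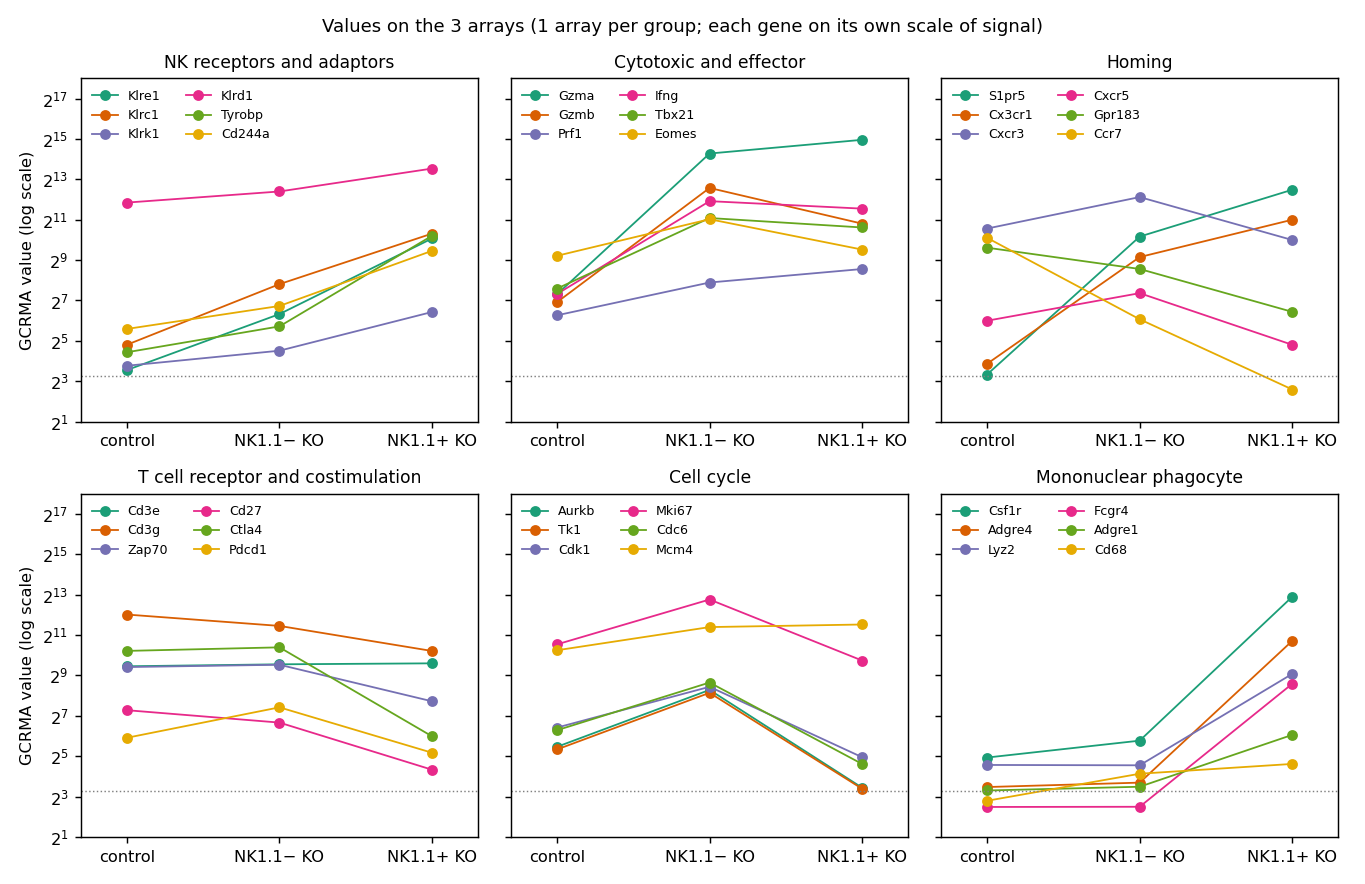
GCRMA values on a log2-spaced axis for 6 genes in each of 6 groups, with the control, NK1.1− KO and NK1.1+ KO arrays from left to right and the measured level dotted; 1 point is 1 array. NK receptors climb stepwise, cell cycle genes other than Mcm4 peak in NK1.1− KO cells, and the mononuclear phagocyte genes have their highest value on the NK1.1+ KO array.

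Of 15 measured receptors and egress genes that place lymphocytes in blood and tissue, 2 were higher and 3 lower, against 6.43% and 20.9% over all genes. S1pr5, the sphingosine-1-phosphate receptor that lets NK and effector cells leave tissue, read 5741, 1148 and 10.05 (5.001-fold higher), and Cx3cr1, the fractalkine receptor of terminal effector cells and nonclassical monocytes, 2049, 568 and 14.5 (3.61-fold higher). Lower were the follicle-homing receptor Cxcr5 (27.9, 164 and 63.8, 5.899-fold), the inflammatory receptor Cxcr3 (1019.6, 4457 and 1512, 4.37-fold) and the oxysterol receptor Gpr183 (86.5, 377 and 784, 4.36-fold). For Cxcr3 and Cxcr5 the NK1.1− KO array was the highest of the 3, and for S1pr5 and Cx3cr1 the NK1.1+ KO array was.

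Integrin subunits were higher for 3 of 16 (18.75%) and lower for 5 (31.25%), against 6.43% and 20.9% over all genes. Their median of -0.30 turned to 0.01 or more on either centring. Itga5, the fibronectin receptor chain, was at least 7.72-fold higher by its 1 measured probe set of 4. Itga9 was at least 4.36-fold higher, with 0.11 by its other measured probe set. Itga1, measured on both KO arrays, was 2.01-fold higher. Itgb3 read 16.4, 112 and 202 (6.83-fold lower), Itgb7, the β chain of gut homing, 538, 1475 and 2270.3 (2.74-fold lower), and Itga6 was 2.89-fold lower. Itgb1 was 3.99-fold lower by its brightest probe set, with others from -2.63 to 0.27. Itgal and Itgb2, which form LFA-1, read 2829.8, 2098 and 1454 and 5593, 7829 and 6369.9.

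Genes of the T cell receptor complex and its coreceptors were lower for 15 of 34 measured members (44.1%, against 20.9% over all genes). None was higher. Their median of -0.88 stayed below 0 under each scaling, at its smallest -0.19. Cd3g read 1185, 2805 and 4146 and Cd3d 738, 1616 and 2275, 2.37-fold and 2.19-fold lower. The adaptor Lat was 2.302-fold lower, the receptors Cd2, Cd5 and Cd6 3.29-fold, 3.096-fold and 2.63-fold lower, and Cd27, lost by terminal effector cells, read 20.1, 101 and 155 (5.05-fold lower). The values of Cd3g, Cd3d, Cd5 and Cd27 ran from control down to NK1.1− KO and down again to NK1.1+ KO. Rhoh was 6.56-fold lower by its brightest probe set, while another gave 0.94 the other way. Cd3e, Bcl11b (10494, 7341 and 7846), Fyn (2966, 2108 and 1029) and Ptprc (17688, 15269.8 and 15554) were not called.

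Co-inhibitory and co-stimulatory receptors were lower for 10 of 22 and higher for 1 (median -0.83, or -0.14 on centring at widely expressed genes), against 20.9% lower over all genes. Ctla4, the inhibitory receptor for B7, read 63.2, 1344 and 1189, 21.3-fold lower in the NK1.1+ fraction, while the other arrays were within 2-fold of each other. Pdcd1, encoding PD-1, read 35.97, 171 and 60.1 (4.76-fold lower), Havcr2, encoding TIM-3, was 3.58-fold lower, and Btla read 947, 2244 and 2713 (2.37-fold lower). The TNF receptor family members Tnfrsf9, Tnfrsf4 and Tnfrsf18, encoding 4-1BB, OX40 and GITR, were 4.54-fold, 4.52-fold and 3.12-fold lower. Entpd1, encoding the ectoenzyme CD39, was 4.23-fold higher by its brightest probe set, and another gave -0.97.

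Regulatory T cell genes were also lower, for 10 of 14 (71.4%, against 20.9% over all genes) and higher for 0. Their median was -1.38, or -0.69 on that centring. Foxp3, their defining factor, read 10.1, 33.3 and 97.1 (3.302-fold lower). Ikzf4 read 17.4, 81.9 and 298 (4.703-fold lower) and Izumo1r, encoding folate receptor 4, 32.98, 147 and 164 (4.47-fold lower). Cd4 read 169, 378 and 344 (2.23-fold lower). Several of these genes also stand in the lists of receptors and activation markers, so the counts are not separate.

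Cytokine receptor chains of the common γ chain family and their signalling partners were lower for 5 of 13 and higher for 0 (median -0.77, or -0.07 on centring at widely expressed genes and -0.38 with the level at the 75th percentile of the table). The share of 38.5% stands against 20.9% over all genes. Il2rb, the interleukin-2 and interleukin-15 receptor β chain, read 51.2, 269.8 and 146 (5.27-fold lower). Jak3, the kinase of the γ chain, was at least 6.02-fold lower, and Il2ra, Il4ra and Il21r 3.11-fold, 3.26-fold and 2.52-fold lower. Il7r stood at 3629.8, 5042 and 7648. Of the interleukin-12 and interleukin-18 genes, Il12rb1 was 4.71-fold lower and Irf1, a target of interferon γ, 2.02-fold lower, while Il18rap and Il18r1 read 2209, 1176 and 119.5 and 1928, 1391 and 550.2.

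Naive T cell genes were lower for 12 of 23 (52.2%, against 20.9% over all genes), and none was higher. Their median of -1.14 stayed below 0 under each scaling, at its smallest -0.44. Igfbp4 gave the largest downward difference among named genes measured on both arrays, at 12.6, 479 and 7032 (38.1-fold lower, with 5 probe sets from -5.25 to -0.59). Ccr7, the lymph node homing receptor, read 6.01, 67.1 and 1101 (at least 6.94-fold lower), and Nsg2 87.9, 770.2 and 2175 (8.76-fold lower). Il6st, the signalling chain gp130, read 22.3, 106 and 745 (4.74-fold lower by its brightest probe set, with 0.0048 by another), Actn1 223, 489.9 and 2139 and Id3 16.6, 43.4 and 153. In all of these the NK1.1− KO array stood between the control and the NK1.1+ KO array. Lef1, Sox4 and Satb1 were within 2-fold between the KO fractions by their brightest probe sets, at 259, 256 and 513, 107, 102 and 612 and 2482, 2346 and 6279. The other Lef1 probe set gave -2.49, so the gene's call depends on the probe set, and those of Satb1 ranged from -0.64 to 1.46.

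Activation and memory markers were lower for 9 of 23 and higher for 1 (median -0.83, or -0.14 on centring at widely expressed genes), against 20.9% lower over all genes. Anxa2, a membrane-binding annexin, read 518, 3503 and 633 (6.76-fold lower), S100a4 903, 2279 and 357 (2.52-fold lower) and S100a6 702, 1414 and 177 (2.02-fold lower). Ahnak, a large scaffold protein, was 2.49-fold higher, at 13181, 5304 and 1226. Cd44 read 2444, 2056 and 568 and Lgals3 1279, 1376 and 162, above control in both fractions, with another Cd44 probe set at -1.25.

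Genes of innate-like T cells were higher for 2 and lower for 2 of 13, against 6.43% and 20.9% over all genes. Their median of -0.22 turned to 0.05 or more under the other scalings. Zbtb16, encoding PLZF, the factor that defines CD1d-restricted NKT cells, read 9.902, 5.74 and 18.5, so it barely passed the level in the NK1.1+ fraction and was above both KO values in the control. The 2 higher genes were Fcer1g and Plac8, which read 2625, 666 and 632 (3.94-fold higher), and the 2 lower ones were the SLAM genes Slamf6 and Sh2d1a. Thymocyte genes were lower for 3 of 7 (42.9%, against 20.9% over all genes) and higher for 0. Ccr9 read 14.9, 36.9 and 293, with its probe sets from -1.31 to 0.95.

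TGF-β pathway genes were higher for 3 of 25 and lower for 2 (median 0.06), against 6.43% and 20.9% over all genes. Lower calls were thus rarer than over all genes, in a comparison in which both fractions carry the deletion. Skil, a SMAD repressor, read 1095, 316 and 1983 (3.47-fold higher), and Bmpr2 was 2.37-fold higher. Tgfbr3, the coreceptor betaglycan, read 71.1, 188 and 1034 (2.65-fold lower). The feedback inhibitors Smad7 and Pmepa1 read 33.4, 25.7 and 162 and 17.6, 17.2 and 114. The other measured Smad7 probe set read 60.8, 25.7 and 73.5, a log2 difference of 1.25, so for Smad7 neither the NK1.1+ value against control nor the difference between fractions was settled. Among 13 genes that TGF-β is known to induce, 2 were higher and 5 lower, against 6.43% and 20.9% over all genes. Tgfbi, also a monocyte and macrophage marker, read 762, 15.4 and 7.19 (49.4-fold higher), and the cell cycle inhibitor Cdkn1a 24.9, 98.3 and 10.4 (3.94-fold lower).

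Of the 45 lists, mitosis genes had the largest share of calls in 1 direction, and genes of cell division were low in the NK1.1+ fraction. Of 47 measured mitosis genes 42 were lower and 0 higher. Their median log2 difference of -2.68 ranged from -2.79 to -1.95 over the other settings tried. Of 43 replication genes 30 were lower and 0 higher (median -1.63, from -2.07 to -0.94). Over all genes 20.9% were lower. Aurkb, the kinase of the chromosomal passenger complex, read 10.8, 312 and 44.1 (28.9-fold lower). Mki67, encoding the proliferation antigen Ki-67, read 852, 6945 and 1487 (8.15-fold lower), and Top2a, the topoisomerase that untangles chromosomes, 262, 2323 and 648 (8.86-fold lower, with -0.37 by its other probe set). On these 3 genes the NK1.1− KO array was the highest and the NK1.1+ KO array the lowest, under the control.

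Entry into mitosis and the spindle showed the same pattern. Cdk1, the mitotic kinase, read 30.8, 347 and 85.3 (11.3-fold lower), its partner Ccnb2, encoding cyclin B2, 45.4, 557 and 91.4 (12.3-fold lower), and Plk1 16.6, 213 and 27.8 (12.8-fold lower). Tpx2 and Nusap1, which organise spindle microtubules, were 15.7-fold and 11.8-fold lower, and Aurka was at least 11.9-fold lower. Ube2c, the ubiquitin-conjugating enzyme of the anaphase-promoting complex, read 16.1, 182 and 21.9 (11.3-fold lower). The 5 mitosis genes not called were Pttg1, Bub3, Foxm1, Incenp and Smc4, with log2 differences of -0.14, -0.41, -0.51, -0.97 and -0.99.

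In S phase genes, Tk1, encoding thymidine kinase, read 10.4, 282 and 40.3 (27.1-fold lower), Rrm1, a subunit of ribonucleotide reductase, 90.8, 1531 and 619.8 (16.9-fold lower), and Dut, which clears dUTP, 127, 1489 and 526 (11.7-fold lower). Cdc6, which loads the replicative helicase at origins, read 24.4, 401 and 77.9 (16.4-fold lower). Mcm10 and the ligase Lig1 were 13.1-fold and 13.3-fold lower, and Pcna, the sliding clamp, read 1495, 7205 and 4789 (4.82-fold lower). The helicase subunits varied with the probe set. By their brightest probe sets Mcm5 was 2.86-fold and Mcm7 2.94-fold lower. Log2 differences ran from -4.28 to -0.28 over 3 measured Mcm5 probe sets and from -4.10 to -1.48 over 4 of Mcm7. Mcm4 read 2944, 2694 and 1215 by its brightest probe set while its other probe set differed by -1.41. Dnmt1 behaved likewise, at 0.07 by the brightest and -1.79 by the lowest of 3 probe sets.

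Of the genes called lower, 3 are shown with their promoters, because mitotic and S phase genes are known to share short promoter elements. The sequences are the 250 bases before the gene's start in RefSeq on GRCm38.p6, 5′ to 3′ on the gene's strand. Capitals mark the cell cycle homology region (TTTGAA), the CCAAT box (CCAAT) and E2F motifs (TTTGGCGC, TTTGCCGC, TTTCGCGC or TTTCCCGC) on either strand. The 3 promoters were chosen after their matches were seen.
Cdk1 (chr10:69352913-69353162, minus strand): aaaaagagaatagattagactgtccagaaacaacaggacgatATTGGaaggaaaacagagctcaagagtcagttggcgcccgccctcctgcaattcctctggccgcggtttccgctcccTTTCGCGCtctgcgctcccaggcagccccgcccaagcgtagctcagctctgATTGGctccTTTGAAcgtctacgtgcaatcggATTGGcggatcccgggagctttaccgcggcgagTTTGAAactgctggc
Ube2c (chr2:164769679-164769928, plus strand): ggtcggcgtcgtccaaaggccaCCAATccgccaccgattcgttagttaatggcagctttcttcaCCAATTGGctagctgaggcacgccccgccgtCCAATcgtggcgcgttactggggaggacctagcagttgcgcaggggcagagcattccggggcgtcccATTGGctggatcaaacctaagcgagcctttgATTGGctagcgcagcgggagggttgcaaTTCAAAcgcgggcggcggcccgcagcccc
Cdc6 (chr11:98907901-98908150, plus strand): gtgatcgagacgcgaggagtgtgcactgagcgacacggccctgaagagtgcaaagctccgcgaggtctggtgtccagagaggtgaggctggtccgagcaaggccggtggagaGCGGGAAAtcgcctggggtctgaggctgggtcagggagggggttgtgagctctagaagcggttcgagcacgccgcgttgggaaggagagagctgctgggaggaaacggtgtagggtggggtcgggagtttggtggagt

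The Cdk1 window holds 2 cell cycle homology regions, 3 CCAAT boxes and 1 E2F motif, and the Cdc6 window 1 E2F motif. The Ube2c window holds 1 cell cycle homology region and 6 CCAAT boxes, counting overlapping matches separately. Over the mitosis list, 38 of 47 genes matched the promoter table, with 41 promoters. The cell cycle homology region was in 18 (43.9%) of them, against 10.9% of the 11053 promoters of measured genes and 15.99% of all 32851, and the CCAAT box was in 32 (78.0%), against 35.1% and 33.8%. An E2F motif was in 2 (4.88%), against 3.37% and 1.86%. For replication, 35 of 43 genes matched, with 43 promoters, and an E2F motif was in 10 (23.3%). The CCAAT box was in 26 (60.5%) of the replication promoters, so it was not particular to mitosis genes, and the cell cycle homology region in 6 (13.95%). Promoters of all genes called lower held the cell cycle homology region in 11.8% and an E2F motif in 4.87% of cases, and those of genes called higher in 14.6% and 1.49%. A match is a string of letters in this window and no evidence of binding.

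**Figure D4:**
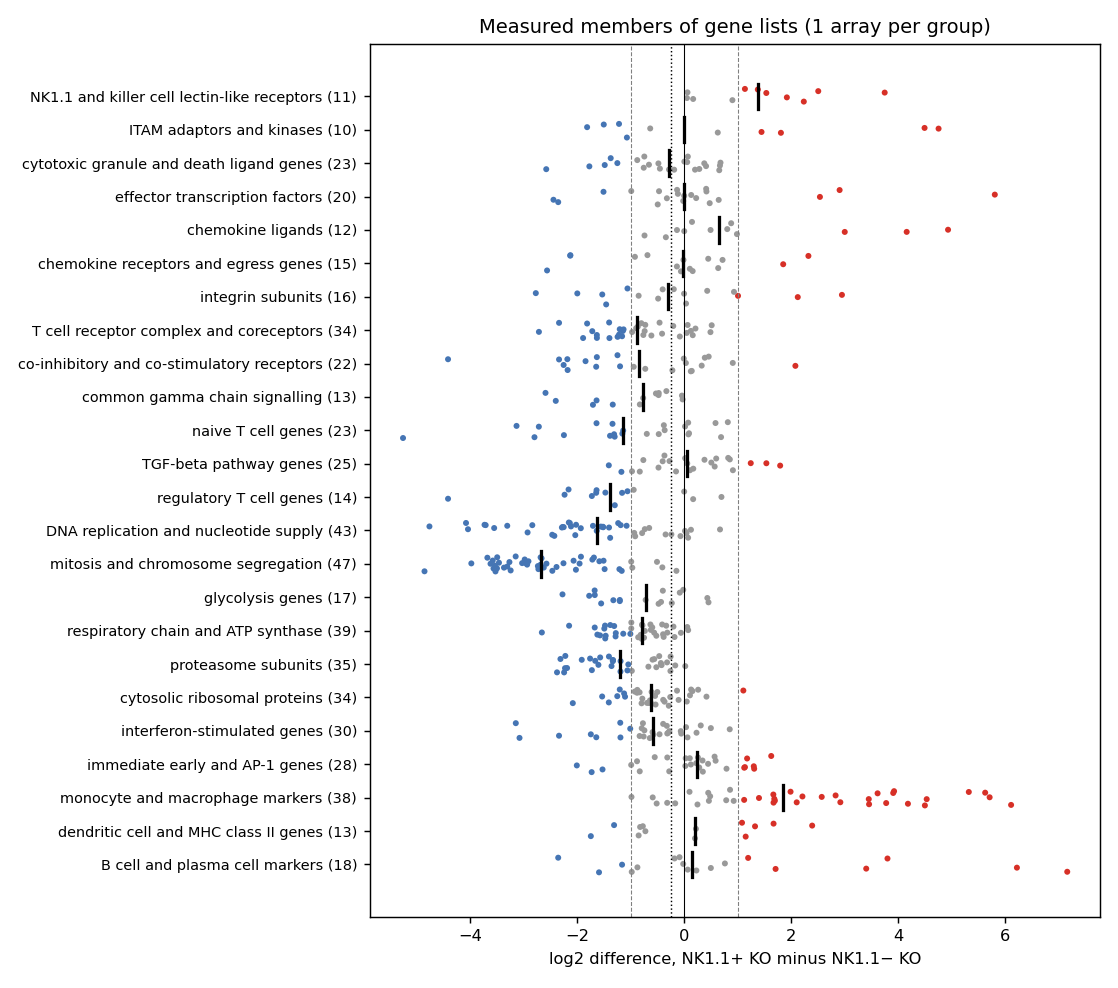
Log2 difference between NK1.1+ KO and NK1.1− KO cells for each measured member of 24 gene lists, with red points called higher, blue points called lower, black bars for the list median, dashed lines at a 2-fold difference and a dotted line at the all-gene median of -0.24; numbers in brackets are measured members. Mitosis genes have the lowest median (-2.68) and monocyte and macrophage markers the highest (1.84).

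Genes that supply growth were called lower more often than the 20.9% over all genes, but most of their medians came near 0 on centring at widely expressed genes, to which all of these lists but glycolysis belong. Proteasome subunits were lower for 21 of 35 and higher for 0 (median -1.19, or -0.49 on that centring). Chaperones were lower for 15 of 33 (median -0.89, or -0.20), among them Hspd1, encoding mitochondrial HSP60, at 427, 1707 and 2278 (3.996-fold lower), and the endoplasmic reticulum isomerase Pdia6, at 129, 562 and 822 (4.36-fold lower). Respiratory chain and ATP synthase genes were lower for 15 of 39 (median -0.79, or -0.10 on that centring), and glycolysis genes for 8 of 17 (median -0.72, or -0.02). Ldha, the lactate dehydrogenase of activated T cells, read 1342, 4269 and 3608 (3.18-fold lower), and Pkm, pyruvate kinase, 192, 658 and 1157 (3.42-fold lower).

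Widely expressed genes had medians of a like size. Of 10 housekeeping genes 4 were lower (40.0%, median -0.80). Of 34 ribosomal protein genes 7 were lower and 1 higher (20.6% and 2.94%, median -0.62), and of 32 splicing genes 6 were lower (18.75%, median -0.38). Over all genes 20.9% were lower and 6.43% higher, so ribosomal protein and splicing genes were called lower about as often as all genes. These 3 lists and the proteasome, chaperone and respiratory chain lists make up the 181 widely expressed genes, so centring on that set moves their own medians towards 0 by construction and says nothing about them. Mitosis and replication genes are outside the set, and centred on it their medians were -1.99 and -0.94. Actb read 8144, 12632 and 14122 and Hprt 1563, 2848 and 2277, both short of 2-fold, though the other Actb probe set gave 1.49.

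Interferon-stimulated genes were lower for 8 of 30 (26.7%, against 20.9% over all genes) and higher for 0 (median -0.58, turning to 0.11 on centring at widely expressed genes). Oas3 was at least 8.43-fold and Isg20 5.05-fold lower, while Ifit2 read 629, 653 and 772 and Mx1 134, 128 and 54.7. MHC class I presentation genes were lower for 4 of 11 (36.4%, with a median of -0.72, or -0.03 on the same centring). The peptide transporter genes Tap1 and Tap2 were 3.43-fold and 5.72-fold lower by their brightest probe sets, with 0.35 by another for Tap1, and B2m read 11419, 12306 and 11834. Immediate early genes ran upward, with 6 of 28 (21.4%) higher and 3 (10.7%) lower, against 6.43% and 20.9% over all genes. Their median of 0.24 was above 0 under every setting tried. Fos read 326, 149.5 and 253 (2.18-fold higher), and Btg1, an antiproliferative gene, 10394, 4217 and 5191 (2.47-fold higher). Myc was 3.31-fold lower, at 13.9, 45.9 and 120.5. Of 25 apoptosis genes 1 was higher and 2 lower (4.0% and 8.0%). Bcl2 read 700.4, 494 and 1395 and Bcl2l11, encoding BIM, 6081, 4823 and 4491.

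Genes of mononuclear phagocytes stood among the largest upward differences. Monocyte and macrophage markers were higher for 25 of 38 measured members and lower for 0 (median 1.84), against 6.43% higher over all genes. All 38 reached the level in the NK1.1+ fraction but 23 of them in the NK1.1− fraction, so the others could not come out lower. Csf1r, encoding the receptor through which macrophage growth factor CSF-1 acts, read 7666, 54.5 and 30.5 (141-fold higher by its brightest of 3 probe sets, which ranged from 1.88 to 7.14). Adgre4, a receptor of nonclassical monocytes, read 1685, 12.9 and 11.1 (131-fold higher), and Lyz2, encoding lysozyme M, 541, 23.4 and 23.7 (23.1-fold higher). In each case the NK1.1− KO and control arrays were within 2-fold of each other. A narrower list, of Csf1r and nonclassical monocyte genes, had 10 of 16 higher and 1 lower (median 1.58).

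Further members showed the same order of arrays. Treml4, Fcgr4 and Clec4a3 were at least 53.4-fold, at least 39.9-fold and at least 52.3-fold higher, being under the level on the other 2 arrays. The macrophage genes Adgre1, encoding F4/80, and Cd163 read 66.6, 11.2 and 9.85 and 31.05, 6.45 and 6.38, and C1qb, a complement chain, 149, 9.84 and 10.2. Cd68 and Spi1 were not called, at 24.5, 17.5 and 6.91 and 16.7, 9.59 and 8.74. Cd14, Itgam, C1qa, Csf3r, Cebpa, Hmox1, Marco and Ms4a7 were under the level on both KO arrays. The list summed to 35301, 11059 and 11591, and its part in the upward differences of genes that phagocytes share with T and NK cells (Tyrobp, Fcer1g, Zeb2, Cx3cr1, Klf4, Cebpb, Syk) was not tested.

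B and plasma cell genes followed for the antibody chains. Jchain, which joins polymeric antibodies, had the largest difference of all named genes, at 2282, 15.97 and 15.9 (143-fold higher), and Igk read 1609, 21.6 and 17.4 (74.4-fold higher). Ighm was 13.9-fold higher by the brightest of 4 probe sets, of which the lowest differed by 0.02. Of 18 measured B and plasma cell markers 6 were higher and 3 lower, against 6.43% and 20.9% over all genes. The surface markers Ms4a1, encoding CD20, and Cd79b read 108, 76.7 and 212 and 24.5, 26.02 and 53.7, and Pax5, Cd79a and Blnk were under the level on both KO arrays.

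MHC class II and dendritic cell genes were higher for 5 of 13 and lower for 2, against 6.43% and 20.9% over all genes. H2-Aa read 1517, 289 and 325 (5.25-fold higher) and Cd74 142, 56.7 and 68.97 (2.51-fold higher), while Itgax, encoding CD11c, read 104, 187 and 9.88, and Flt3, Xcr1, Siglech, Batf3, Cd209a and Ciita were under the level on both KO arrays. Granulocyte markers were higher for 1 of 10, with S100a8 at 236, 121 and 97.9. No platelet marker of 10 on the array was measured on either KO array. The fibroblast genes Dcn and Col1a2 were at least 10.04-fold and at least 9.35-fold higher, each by its 1 measured probe set. Their other probe sets were under the level on every array. Of 17 fibroblast and endothelial markers 14 were under the level on both KO arrays, and the plasma protein gene Hp was at least 7.12-fold higher. Red cell genes gave signal too. The probe set shared by Hbb-bt, Hbb-bs, Hbb-b2 and Hbb-b1, the haemoglobin β genes, read 237, 55.4 and 849.96, so the control was the highest and the NK1.1+ fraction 4.28-fold above NK1.1− KO cells. Hba-a2, a haemoglobin α gene, read 60.7, 21.2 and 18.3 and Slc4a1, the red cell anion exchanger, 41.2, 11.4 and 59.5.

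Other genes of large difference include members of these lists and genes outside them. Upward, and measured on both arrays, were Vcam1 (789, 11.4 and 11.3), an adhesion molecule of tissue macrophages and endothelium, Fpr2 (830.5, 14.5 and 9.86), a formyl peptide receptor, and Alox5ap (1014, 37.1 and 19.7), which serves leukotriene synthesis. Tnfaip2, Tgm2, Lyz1, Marcks, Neo1, Sgip1 and Gda were 54.3-fold, 46.7-fold, 22.6-fold, 17.2-fold, 23.5-fold, 22.1-fold and 17.5-fold higher by their brightest probe sets. The lowest measured probe set gave a log2 difference of 0.02 for Tgm2, 0.06 for Sgip1, 0.08 for Marcks and 0.25 for Vcam1. It gave 1.74 for Neo1, 4.13 for Gda and 4.50 for Lyz1. The other Tnfaip2 probe sets were under the level on every array. Measured on the NK1.1+ KO array only were Klkb1 (at least 38.1-fold), Sirpb1a (at least 34.4-fold), Clec4n (at least 26.1-fold), Runx1t1 (at least 25.5-fold) and Ppp1r9a (at least 25.4-fold). The other Runx1t1 probe sets were under the level on every array, and the other measured probe sets of Ppp1r9a and Clec4n gave 0.98 and 1.39.

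Downward, most of the leading genes serve the cell cycle. Cdca5, which protects sister chromatid cohesion, read 74.2, 1294 and 195 (17.4-fold lower), and Clspn and Timeless, which guard replication forks, were 12.3-fold and 15.8-fold lower. Lrr1 and Cdca2 were 18.2-fold and 15.9-fold lower. Among genes measured on the NK1.1− KO array only, Spc24, Sgo1, Kifc1, Chaf1b and Cdc25c were at least 11.2-fold, at least 11.1-fold, at least 11.1-fold, at least 10.6-fold and at least 10.3-fold lower. Outside cell division stood Bag5 (at least 20.5-fold), Wdr74 (at least 13.3-fold), Coq7 (at least 11.4-fold), Got1 (at least 11.02-fold), the translation factor subunit Eif2b1 (12.2-fold) and the endoplasmic reticulum isomerase Fkbp2 (11.5-fold). Bag5, Wdr74, Coq7, Got1, Eif2b1 and Fkbp2 were all measured in control cells, at 354, 237, 82.7, 126, 259 and 89.7.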

How the data were processed

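The deposited table holds linear intensity values, which the authors made with GCRMA 1.1.3, per the submitters' processing notes. The sources used here do not give its settings. RNA was hybridised to Affymetrix mouse 430 2.0 arrays, 1 for each of the 3 groups, so the number of arrays limits the precision and groups, taken from the sample titles, have no error.

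Of 45101 probe sets 64 are array controls. The platform annotation gives exactly 1 symbol for 34945, several for 932 and none for 9160 of the others. The log2 of each value was used. For the measured level, values of 145 probe sets of genes not transcribed in T cells, such as olfactory and taste receptors, were pooled over the arrays and the 95th percentile was taken. The calling rule was tested on simulated data, with noise smaller than the spread between probe sets of a gene. Changes were planted only in genes well above the level. The simulation therefore does not show how often calls on these arrays, or calls near the level, are wrong.

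The 45 gene lists (1138 names, of which 1001 matched, as 918 distinct genes) and the members of the comparison were chosen with earlier results of these data known. Named genes are the 20 each way with the largest differences among genes measured on both KO arrays, and the 10 each way among those measured on the brighter array only, with an established symbol and all measured probe sets in 1 direction. Leading members of each list and the sort, lineage and targeted genes were also named. Members given as under the level, genes given as not called and the probe sets with several symbols were named after their values were seen. Promoters come from RefSeq on GRCm38.p6. The tools were Python 3.11.15, numpy 2.4.6, pandas 2.3.3 and matplotlib 3.10.9. Alternatives varied the level, an offset, the choice of probe set, the scaling and the fold.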

Additional observations from a re-analysis of the deposited data

Results flagged for a closer look

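Probe sets that the comparison did not use gave more signal from NK1.1+ KO cells than from control cells. Of 9160 probe sets without a gene symbol, 3663 (39.99%) were measured in NK1.1+ KO, against 2743 (29.95%) in NK1.1− KO cells and 2739 (29.9%) in the control. Measured on 1 array alone were 866, 67 and 75 in the same order. For probe sets with exactly 1 symbol the shares measured were 49.3%, 48.5% and 48.2%.

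Of the probe sets with several symbols, 11 read at least 8-fold more in NK1.1+ KO cells than in both other groups. The 3 probe sets of the immunoglobulin κ genes (Igkv6-23, Igkv4-53, Igkv8-30, Igkj1 and Igkc) read 9606, 708 and 893, 6299.7, 493 and 611, and 2199, 174 and 272, in the order NK1.1+ KO, NK1.1− KO and control. The probe set of Klrb1b and Klrb1c read 1618 in NK1.1+ KO cells and that of Klra9 and Klra3 read 1588, as given among the NK receptors. The probe set of the phagocyte receptors Sirpb1c, Sirpb1b and Sirpb1a read 431, 9.51 and 6.17. That of Ceacam2 and Ceacam1, which encode adhesion molecules, read 153, 10.8 and 12.7. A probe set of 9 predicted or testis genes that include Luzp4 and Ott read 395, 8.33 and 15.8, and that of the predicted genes Gm2832 and Gm8267 179, 10.8 and 21.1. The 2 probe sets of the Ugt1a glucuronosyltransferase genes read 144, 5.403 and 5.502 and 98.3, 7.51 and 7.68. These probe sets cannot be assigned to 1 gene, and each value is of 1 array.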

How the results depend on the processing

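No paired analysis was possible because each group has 1 array, and no replicate could be left out. The counts higher and lower moved by more than 1.5 times from 683 and 2222 under these settings. When the level was put at 53.99, the 75th percentile of the table, they were 323 and 1287, with an offset of 32 in place of a level 355 and 1180, and with a 3-fold call 361 and 896. Averaging all probe sets gave 329 higher. Centring on the median of genes measured on both arrays gave 1141 and 1431, and centring on 181 widely expressed genes, which was added after seeing the data, gave 2140 and 737. Without a level, with the brightest probe set over the KO arrays, without suffixed probe sets, under quantile normalization and with every measured probe set past 2-fold, the counts were 594 to 922 with the exception of 457 higher in the last, and 1545 to 2317 lower. Single genes turned with the choice of probe set. With the requirement on every probe set, log2 differences became 0.95 for Ccr9, 0.0071 for Cd247, -0.97 for Entpd1, 0.27 for Itgb1, 0.94 for Rhoh, 0.35 for Tap1 and 0.024 for Vav1. Without suffixed probe sets they became 1.49 for Actb, 0.95 for Ccr9, -1.41 for Mcm4 and 0.024 for Vav1, and with the mean of probe sets -1.24 for Lef1. The cause was not tested. Dim genes depend most on the level, and GCRMA values give no counting depth.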

Other observations

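The families below were chosen after their values were seen, and are given as counts. Cytosolic aminoacyl-tRNA synthetases, which charge tRNAs for translation, were lower in NK1.1+ KO than in NK1.1− KO cells for 14 of 18 measured genes, with none higher. Their median log2 difference was -1.37, from -3.10 to -0.33. Mitochondrial ribosomal proteins (Mrpl and Mrps) were lower for 32 of 74 (median -0.91). Translation initiation factor genes (Eif) were lower for 17 of 46 and higher for 1 (median -0.57). Zinc finger genes of the Zfp series stood apart, lower for 25 of 229 (10.9%), higher for 5 (median -0.02), against 20.9% lower over all measured genes.

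Among surface receptors of myeloid cells, the 4 measured Cd300 genes were all higher (median 3.78, from 2.15 to 4.38), as were 4 of 5 Clec4 genes (median 3.78). Protocadherin and cadherin genes were higher for 5 of 8, with none lower (median 1.55). Over all measured genes 6.43% were higher and 20.9% lower. In these families a member that reached the level in the NK1.1+ fraction alone, such as Clec4a3 or Clec4n, could not come out lower. Xist, transcribed from the inactive X chromosome, read 4225, 5490.1 and 5154 in the order NK1.1+ KO, NK1.1− KO and control, and the Y-linked Eif2s3y 7.06, 25.7 and 6.85.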
